A study of Equus caballus with 4 samples.

Results

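The genes described here are the ligands, antagonists, receptors, SMAD proteins, nuclear corepressors and ID targets of the TGF-beta, BMP and myostatin pathway. They were chosen by name: a list of 49 symbols was set against the gene names that the array files give to their 60-base probes. Of the 24998 gene names on the array, 40 were on the list, with 102 probes. Another 8 of the 49 were on the array under an accession or a description only, and no probe was found for *GDF15*. The samples were equine satellite cells (ESC), the muscle stem cells of the horse, taken from *m. semitendinosus* and examined on day 3 of differentiation. Each of the 4 two-colour arrays held both groups and counts as 1 replicate. The treated group had received HMB (β-hydroxy-β-methylbutyrate, a metabolite of leucine) for the last 24 h, and the control group had been kept in differentiation medium without HMB. The labels give the dose as 50 µg, whereas the methods give the same number as a micromolar concentration.

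Cy5 marked the HMB-treated and Cy3 the control cells on all 4 arrays, so an effect of the dye and an effect of HMB cannot be told apart. All 4 arrays lay on 1 slide. The cells came from 6-month-old colts and were preplated to limit fibroblasts. The labels call the arrays biological replicates, but which colt each array stands for is not given in the sources used here, and *p*-values then measure the spread between these 4 arrays. Median signal over background lay between 3.16 and 3.82 for the control channel and between 4.68 and 5.85 for the HMB channel. With only 4 arrays, all values below are of limited precision.

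TGF-beta, activin, myostatin and BMP ligands are secreted dimers that bind pairs of serine/threonine kinase receptors, and these phosphorylate SMAD proteins that enter the nucleus with SMAD4. Activins, myostatin and TGF-beta act mainly through SMAD2 and SMAD3 and restrain the fusion of myoblasts, whereas BMPs act through SMAD1, SMAD5 and SMAD9 and switch on the ID genes, which hold back the myogenic factors. Follistatin, gremlin, noggin and chordin bind ligands outside the cell, and SMAD6, SMAD7, SKI and the SMURF ubiquitin ligases damp the signal inside it.

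A value is the log2 ratio of HMB over control mRNA on an array, so a value above 0 stands for a higher level in HMB-treated cells. Testing required that 1 of the channels, the same on all 4 arrays, was clearly brighter than background, and each gene stands by the brightest of its tested probes. Of the 40 genes found by name, 34 were tested, and 10 passed limma's test at an adjusted *p* of at most 0.05, 2 higher and 8 lower with HMB. That is 29.4% of the tested members (5.88% higher and 23.5% lower). Beside it stand 22.4% of all 15614 genes tested (10.9% higher and 11.6% lower) and 22.8% of all 27383 probes tested (11.2% higher and 11.6% lower). Both directions together lie near the background, with the lower share above it and the higher share below it. Of the 2 higher, *GDF10* was tested through the HMB channel alone. The list was not tested as a set, and the members are therefore described one by one. All 10 had the same sign on all 4 arrays, as had 20 of the 34 tested members. The median of the 34 was -0.037, with 21 below 0 and 13 above, whereas it was 0.070 with 13 below 0 when raw signals, corrected by normexp with an offset of 50, were centred on the array median. That alternative is called "without loess" here, although the background correction differs as well. The median of all tested probes moved from 0.022 to 0.15 in that setting, and set against it the median of the members was -0.059 as reported and -0.080 without loess. In such bulk samples fewer cells of a type and less RNA per cell cannot be told apart.

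The 10 calls depended on the processing. The number that passed was 4 without loess (11.8%, beside 26.6% of all tested probes in that setting). It was 9 when normexp was followed by loess (26.5%, beside 22.8% of all tested probes there), with *SMAD6* and *SMURF1* lost and *BMPR1A* gained. It was 4 under a t-test of each probe on its own values (16 at an unadjusted *p* under 0.05, against 17 with limma). A Student test is named in the study's supplement only, its 1-sample form was chosen here, and it is called the methods' t-test below. The number was 5 when the channels of an array were compared as separate samples without pairing. It was also 5 without array 2 and 5 without array 3. Without the filter on dim probes it was 8 of 40 (20%, beside 8.46% of all probes), 1 higher and 7 lower. The share of members was 11.8% under the t-test, where 768 of all 27383 tested probes passed, and 14.7% beside 8.13% of all tested probes without pairing. It was 14.7% beside 9.38% without array 2, and 14.7% beside 9.97% without array 3. No passing member changed its sign under any of the alternatives tried. Set against the median of all tested probes, 9 of the 10 kept their side without loess, and *GDF10* did not.

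**Figure D1:**
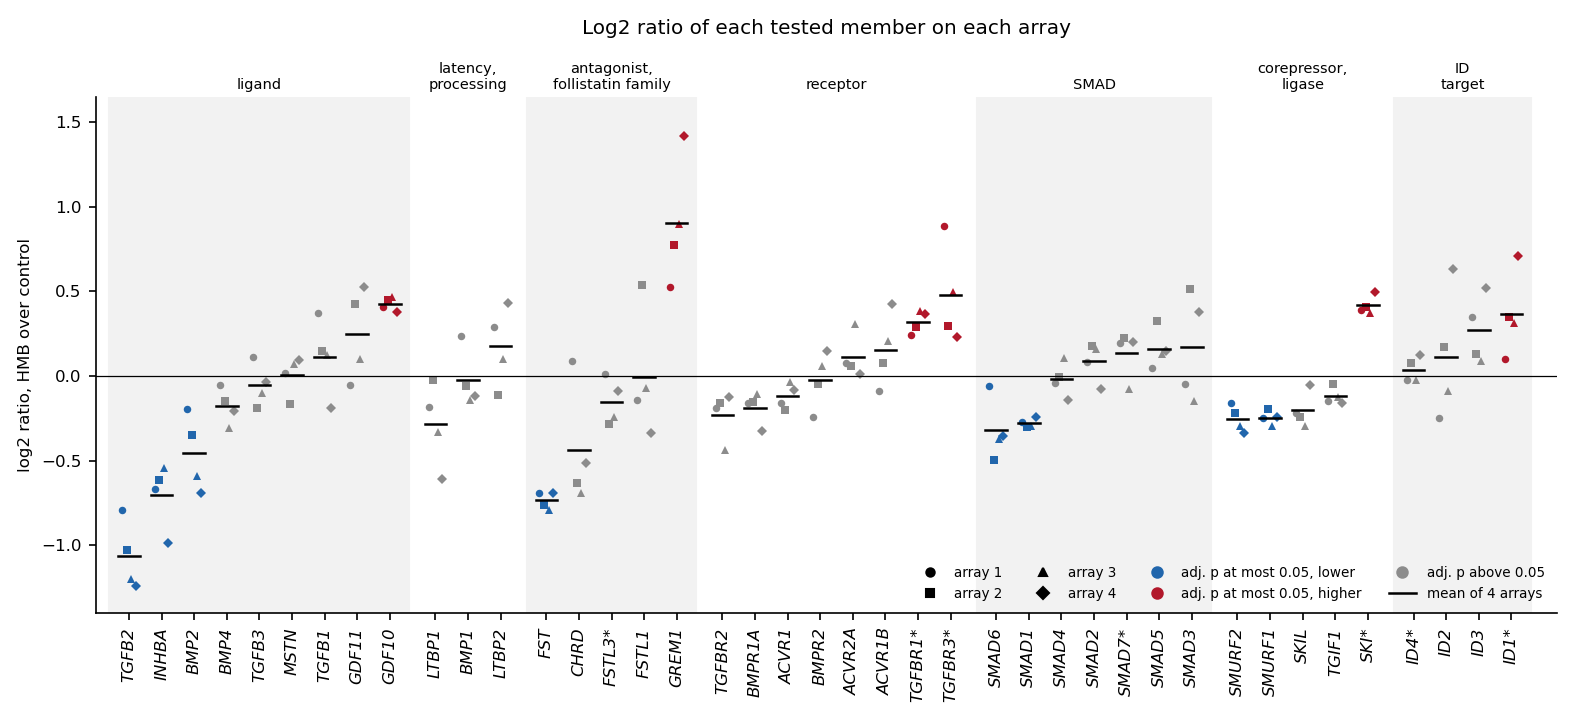
Log2 ratio of HMB over control (vertical axis) for each of the 41 tested members on arrays 1 to 4, grouped by role, with a bar at the mean of the 4 arrays, and with an asterisk on genes found by accession or description. *TGFB2* has the lowest mean (-1.07) and *GREM1* the highest (0.90), and the arrays of *CHRD*, *FSTL1*, *SMAD3* and *ID2* lie on both sides of 0.

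Among the ligands, 9 of 14 were tested, and *TGFB2*, *INHBA* and *BMP2* fell while *GDF10* rose. Without loess only *TGFB2* and *INHBA* of these passed, and the median of the 9 ligands was -0.052 as reported and 0.057 without loess, or -0.074 and -0.093 when set against the median of all tested probes. *TGFB2*, 1 of the 3 TGF-beta isoforms, gave log2 ratios of -0.79, -1.03, -1.20 and -1.24 on arrays 1 to 4. Every array was therefore clearly below 0, with array 1 the least so. The level with HMB was 0.478 times that of control cells (95% confidence interval 0.411 to 0.555, log2 -1.07, SE 0.090, adjusted *p* = 0.0016, lower on 4 of 4 arrays). A second probe of the gene gave the same mean of -1.07, and 2 more probes tied to it by accession gave -0.89 and -0.80, all past the threshold. Under the methods' t-test this probe missed the threshold while the other 3 probes passed, and no other alternative ended its call. The value without loess was -0.74. As the *TGFB2* value is the lowest of the members, the sequence of its probe is shown, which lies at chr30:4092948-4093007 (EquCab1, minus strand).
TGFB2 probe: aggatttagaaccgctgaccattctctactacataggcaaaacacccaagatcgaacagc

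The means of the other TGF-beta isoforms were smaller in size than that of *TGFB2*. *TGFB1* gave 0.38, 0.15, 0.12 and -0.19 on arrays 1 to 4 (mean 0.11, adjusted *p* = 0.43), with arrays on both sides of 0. Its mean was 0.027 without array 1, 0.22 without array 4 and 0.21 without loess, or 0.064 against the median of all tested probes there. *TGFB3* gave 0.11, -0.19, -0.10 and -0.033 (mean -0.052, adjusted *p* = 0.625), with 0.064 without loess, or -0.086 against the median of all tested probes there. Neither passed the test, and the difference between *TGFB2* and its isoforms was not tested.

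*INHBA* codes for the subunit of activin A. Its log2 ratios were -0.67, -0.61, -0.55 and -0.99 on arrays 1 to 4. All arrays were lower with HMB, and array 4 stood lowest. The level was 0.615 times that of control cells (95% confidence interval 0.531 to 0.712, log2 -0.70, SE 0.088, adjusted *p* = 0.0048). All 4 *INHBA* probes passed, with means between -0.72 and -0.67, but any pair of them shares 57 to 59 of its 60 bases, so they read almost the same stretch of the mRNA. The call was lost under the methods' t-test and without pairing of the channels, and the mean without loess was -0.45.

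*BMP2*, an osteogenic ligand of the BMP branch, gave -0.20, -0.35, -0.59 and -0.69 on arrays 1 to 4. All arrays were below 0, and the array furthest from 0 was more than 3 times as far as the nearest. The level with HMB was 0.728 times that of control cells (95% confidence interval 0.621 to 0.855, log2 -0.46, SE 0.096, adjusted *p* = 0.021). The second *BMP2* probe gave -0.30, -0.42, -0.70 and -0.75, with a mean of -0.54 and an adjusted *p* of 0.012. Without array 2 the mean of the first probe was -0.49 and without array 3 it was -0.41, and in both cases it no longer passed. It also missed the threshold without the filter on dim probes, under the methods' t-test and without loess (-0.20).

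*BMP4*, the ligand closest to BMP2 in sequence, had 9 probes of 5 distinct sequences. The brightest gave -0.054, -0.15, -0.31 and -0.21 on arrays 1 to 4 (mean -0.18, adjusted *p* = 0.10). The means of the 9 probes lay between -0.23 and -0.14, all below 0 and none past the threshold. Without loess the mean of the brightest was -0.012. The probes of both genes are shown because overlapping probes do not give independent readings of a gene. The *BMP2* probe shown is the second one, with the mean of -0.54, and not the brightest on which the gene's value rests. It lies at chr22:16619147-16619206 (EquCab1, minus strand), and its capitals mark the 30 bases shared with the other *BMP2* probe. Of the *BMP4* probes, the outermost pair lies at chr24:1954589-1954648 and chr24:1954593-1954652 (minus strand), and capitals mark the 56 bases they share.
BMP2 probe, second: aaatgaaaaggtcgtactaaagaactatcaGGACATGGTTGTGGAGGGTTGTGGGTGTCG
BMP4 probe, lower position: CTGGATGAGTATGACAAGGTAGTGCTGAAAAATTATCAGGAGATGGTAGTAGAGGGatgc
BMP4 probe, higher position: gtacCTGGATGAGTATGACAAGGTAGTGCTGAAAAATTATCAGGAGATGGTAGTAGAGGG
The first of these *BMP4* probes had a mean of -0.21 and the second a mean of -0.14, while the brightest probe, at the same position as the second, had a mean of -0.18.

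*GDF10*, also called BMP3B, gave 0.41, 0.45, 0.47 and 0.38 on arrays 1 to 4. These 4 values lay within 0.1 of each other, all above 0. Its level was 1.34 times that of control cells (95% confidence interval 1.22 to 1.48, log2 0.43, SE 0.058, adjusted *p* = 0.0062). The probe was dim, and the control channel was well above background on 3 of 4 arrays only. *GDF10* was therefore tested through the HMB channel alone, in which it is brighter, and this favours a higher ratio. It was not tested when both channels had to be above background. With the authors' processed signals the mean was as given above. With raw signals corrected by normexp and normalised by loess the mean was 0.19, still past the threshold. Without loess it was 0.072 and did not pass, and set against the median of all tested probes in that setting, 0.15, it was -0.078.

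Myostatin itself, the main inhibitor of muscle growth, did not pass. *MSTN* gave 0.018, -0.17, 0.071 and 0.095 on arrays 1 to 4 (mean 0.0043, 95% confidence interval -0.16 to 0.17, adjusted *p* = 0.97). The arrays lay on both sides of 0, and the interval holds changes of up to 0.17 either way. A second *MSTN* probe was not well above background in either channel on any array. *GDF11*, its closest relative, gave -0.050, 0.43, 0.10 and 0.52, with a mean of 0.25 (adjusted *p* = 0.14), and array 1 stood apart in sign. The probes of *BMP5*, *BMP6* and *BMP7* were not well above background on any array in either channel and were not tested. *INHBB*, found by its description, was above background on 1 array in each channel and was not tested.

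**Figure D2:**
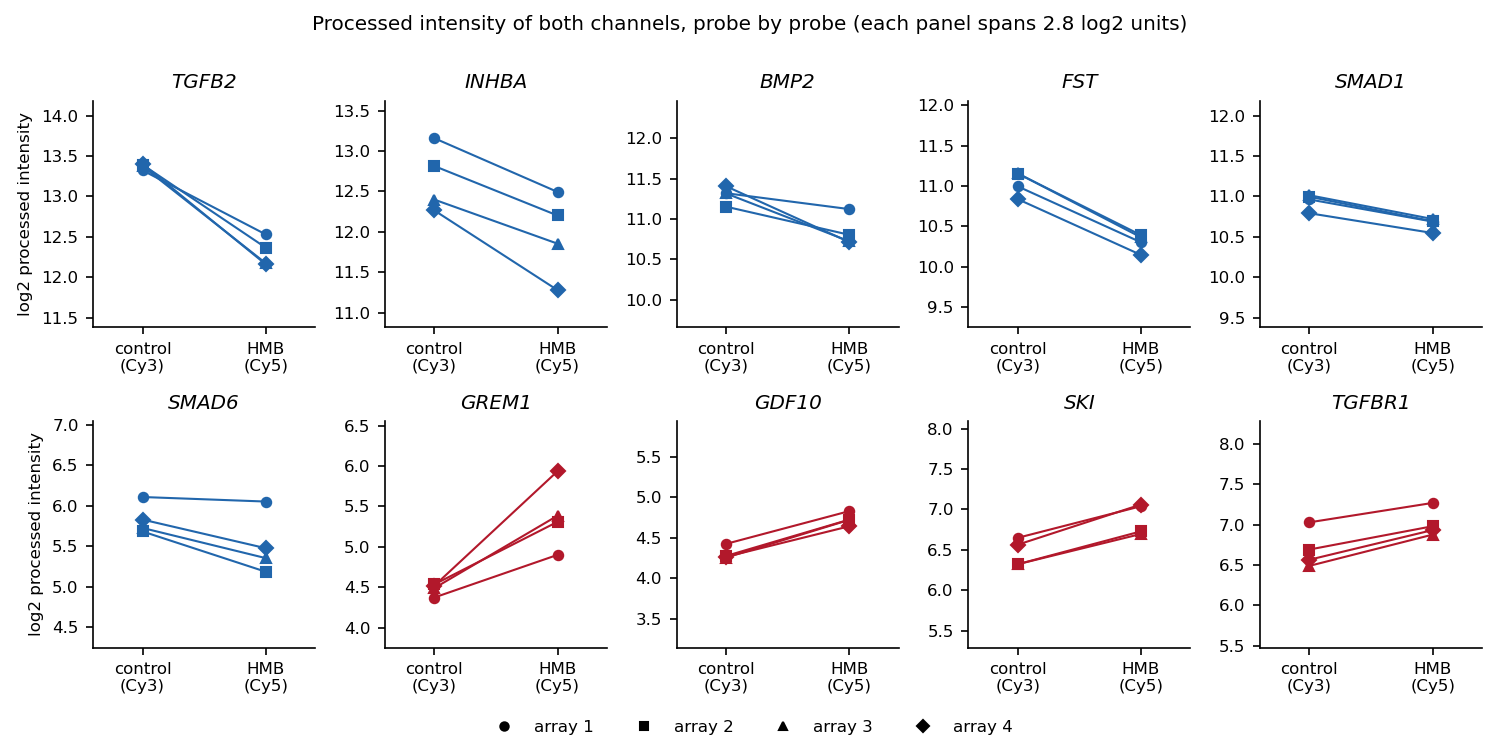
Log2 processed intensity of the control (Cy3) and HMB (Cy5) channel, joined within each array, for the representative probe of 10 of the 14 members past the threshold under any name. Each panel spans the same number of log2 units. *SKI* and *TGFBR1* were found by accession or description, and *GDF10* was tested through the HMB channel alone. *SMURF1*, *SMURF2*, *TGFBR3* and *ID1* also passed but are not shown. All 4 lines fall for *TGFB2*, *INHBA*, *BMP2*, *FST*, *SMAD1* and *SMAD6* and all 4 rise for *GREM1*, *GDF10*, *SKI* and *TGFBR1*.

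None of the 3 latency and processing genes passed. *LTBP1*, which binds latent TGF-beta to the matrix, gave -0.18, -0.023, -0.33 and -0.61 on arrays 1 to 4 (mean -0.29, adjusted *p* = 0.091). Of its 5 probes, which share at least 53 bases, 1 passed with a mean of -0.36 (adjusted *p* = 0.044). *LTBP2*, a matrix protein of the same family, had a mean of 0.18 (adjusted *p* = 0.23). *BMP1*, the protease that processes procollagen and frees myostatin and GDF11 from their propeptides, had a mean of -0.022, and without loess of 0.19, or 0.039 against the median of all tested probes there.

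Of the extracellular antagonists and the follistatin family, 4 were tested by name, of which *FST* fell and *GREM1* rose. *FST*, which codes for follistatin and neutralises activin and myostatin, gave -0.69, -0.76, -0.79 and -0.69 on arrays 1 to 4. The 4 arrays lay within 0.11 of each other. The level with HMB was 0.601 times that of control cells (95% confidence interval 0.545 to 0.664, log2 -0.73, SE 0.059, adjusted *p* = 0.0015). *FST* passed in all 16 alternatives, with means between -0.75 and -0.50. Thus the mRNA of the activin A subunit and that of its binding protein were both lower in HMB-treated cells.

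*GREM1* codes for gremlin, which binds BMP2 and BMP4. It gave 0.53, 0.77, 0.90 and 1.42 on arrays 1 to 4. All arrays were higher with HMB, and they were widely spread. The level was 1.87 times that of control cells (95% confidence interval 1.48 to 2.37, log2 0.90, SE 0.14, adjusted *p* = 0.0090). The probe was dim, with log2 intensities between 4.37 and 4.53 in the control channel and between 4.90 and 5.93 in the HMB channel. With normexp and loess the mean was 0.30. Without loess it was 0.25, or 0.10 against the median of all tested probes there, and no longer passed. The call was also lost without the filter on dim probes and under the methods' t-test, and without array 4 the mean was 0.73. The probe is shown since its mean is the highest of the members as reported. In both of those scalings *ID1* stood higher, at 0.35 with normexp and loess and 0.64 without loess. Capitals mark a TAA triplet, the only stop triplet in that reading frame of the *GREM1* probe. Which frame is translated was not examined here. The probe lies at chr1:150559292-150559351 (EquCab1, plus strand).
GREM1 probe: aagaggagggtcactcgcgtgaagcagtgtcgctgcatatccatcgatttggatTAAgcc

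*CHRD*, which codes for the BMP antagonist chordin, gave 0.088, -0.63, -0.69 and -0.51 on arrays 1 to 4 (mean -0.44, adjusted *p* = 0.063). Array 1 lay above 0 and the other arrays well below it, and without array 1 the mean was -0.61 and passed. The probe was dim, with log2 intensities between 4.74 and 5.05 in the control channel and between 4.04 and 5.14 in the HMB channel. *FSTL1*, a follistatin-like glycoprotein, gave -0.14, 0.54, -0.073 and -0.34, with a mean of -0.0042 (adjusted *p* = 0.99). *FSTL3*, a second inhibitor of activin and myostatin, was found by its description and gave 0.010, -0.28, -0.24 and -0.091 (mean -0.15, adjusted *p* = 0.18). The single probe of *NOG*, noggin, was not well above background on any array.

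No receptor found by name passed, out of 6 tested, and their median was -0.070 as reported and 0.070 without loess. Set against the median of all tested probes it was -0.092 and -0.080, so it kept its side. With *TGFBR1* and *TGFBR3*, found by description, 8 receptors were tested, 2 were higher, and the median as reported was 0.047. Among the type 2 receptors, *TGFBR2* for TGF-beta gave -0.19, -0.16, -0.44 and -0.13 on arrays 1 to 4 (mean -0.23, adjusted *p* = 0.071). The means of its 6 probes lay between -0.26 and -0.16, and none passed. *BMPR2* for BMPs gave -0.24, -0.048, 0.060 and 0.15 (mean -0.021, adjusted *p* = 0.87). *ACVR2A*, which binds activin and myostatin, gave 0.076, 0.061, 0.31 and 0.010 (mean 0.11, adjusted *p* = 0.29), and its second probe had a mean of -0.055. *ACVR2B*, the main myostatin receptor, was not well above background on any array.

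Among the type 1 receptors, which carry the signal to the SMAD proteins, *BMPR1A* gave -0.16, -0.15, -0.11 and -0.33 on arrays 1 to 4 (mean -0.19, adjusted *p* = 0.087). With normexp and loess it passed, whereas without loess its mean was 0.0035, or -0.15 against the median of all tested probes there. *ACVR1*, a receptor for BMPs and activins, gave -0.16, -0.20, -0.035 and -0.083 (mean -0.12, adjusted *p* = 0.21), and without loess its mean was 0.11, or -0.038 against that median. *ACVR1B*, the activin receptor, gave -0.091, 0.077, 0.21 and 0.42 (mean 0.15, adjusted *p* = 0.27). *BMPR1B* had ratios of -0.88, -1.01, -0.94 and -0.53, but it was well above background on 3 arrays in the control channel and on 1 in the HMB channel, and so it was not tested. Without the filter on dim probes 8 receptors found by name were tested, and 1 passed and was lower. That receptor was not among those tested with the filter.

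*TGFBR1*, the type 1 receptor for TGF-beta, is on the array under its older name ALK5 and was recognised from its description. It gave 0.24, 0.29, 0.39 and 0.37 on arrays 1 to 4, all above 0 and close together. Its level was 1.25 times that of control cells (95% confidence interval 1.13 to 1.38, log2 0.32, SE 0.061, adjusted *p* = 0.016). Of its 6 probes 3 passed, all higher. The highest of these, at 0.70, had its control channel above background on 2 arrays only and was tested through the HMB channel, in which it is brighter. The means of the other 5 lay between 0.095 and 0.41, and 2 of them passed. Without array 2 the mean was 0.33 and without array 3 it was 0.30, and neither passed, nor did it pass under the methods' t-test or without pairing. *TGFBR3*, the coreceptor betaglycan that presents TGF-beta2 to the other receptors, was also found by description and gave 0.89, 0.30, 0.50 and 0.23. Array 1 stood highest, and the mean of 0.48 passed (SE 0.12, adjusted *p* = 0.032), with the control channel above background on 3 arrays. *TGFBR3* was thus tested through the HMB channel alone, in which it is brighter. With normexp and loess it was 0.098 and without loess 0.020, and it passed in neither. Against the median of all tested probes, the value without loess was -0.13. It did not pass without array 2 (0.54) or without array 3 (0.47), nor without the filter on dim probes, without pairing or under the methods' t-test.

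Of the SMAD genes found by name, 6 were tested, and *SMAD1* and *SMAD6* fell. Without loess neither passed and both means stayed below 0. *SMAD1*, a carrier of the BMP signal, gave -0.27, -0.30, -0.29 and -0.24 on arrays 1 to 4, values within 0.06 of each other. The level was 0.824 times that of control cells (95% confidence interval 0.749 to 0.907, log2 -0.28, SE 0.057, adjusted *p* = 0.020). A second, dimmer *SMAD1* probe gave 0.20, 0.12, -0.14 and -0.52 (mean -0.087, adjusted *p* = 0.64). The difference between the probes was not tested, and the mean of both, -0.18, did not pass. The call was also lost without array 2 (-0.27), without array 3 (-0.27), without pairing and without loess (-0.061).

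*SMAD6*, the inhibitory SMAD of the BMP branch, gave -0.056, -0.50, -0.37 and -0.35 on arrays 1 to 4. Array 1 lay near 0 and the other arrays clearly below it. The level was 0.801 times that of control cells (95% confidence interval 0.694 to 0.924, log2 -0.32, SE 0.086, adjusted *p* = 0.042). It passed in 7 of 16 alternatives, with means between -0.41 and -0.11, and missed the threshold without array 2 (-0.26), array 3 (-0.30) or array 4 (-0.31). The mean was -0.11 with normexp and loess and -0.14 without loess, and the call was lost in both. The probe is shown because its position, chr1:123063267-123122445 (EquCab1, minus strand), spans 59179 bases and so more than its 60 bases. No annotation of exons was analysed here.
SMAD6 probe: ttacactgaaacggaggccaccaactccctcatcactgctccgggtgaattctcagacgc

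*SMAD5*, which acts beside SMAD1, gave 0.045, 0.33, 0.13 and 0.15 on arrays 1 to 4 with its brightest probe (mean 0.16, adjusted *p* = 0.14). All arrays were above 0, but that probe did not pass. Of its 7 other probes 6 passed, all higher, with the means of all 8 between 0.16 and 0.29, and 5 of the 8 share at least 56 bases. The mean of all *SMAD5* probes, 0.25, did pass. The members *SMAD1* and *SMAD5* of the BMP branch thus had opposite signs, and the difference between them was not tested.

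The carriers of the TGF-beta and activin signal did not pass with any probe. *SMAD2* gave 0.085, 0.18, 0.16 and -0.075 on arrays 1 to 4 (mean 0.087, adjusted *p* = 0.40), and the means of its 6 probes lay between -0.024 and 0.087. *SMAD3* gave -0.049, 0.52, -0.15 and 0.38 (mean 0.17, adjusted *p* = 0.35), with arrays far apart and probe means between 0.16 and 0.35. *SMAD4*, the common partner, gave -0.044, -0.0050, 0.11 and -0.14 (mean -0.020, adjusted *p* = 0.84), and without loess its mean was 0.14, or -0.014 against the median of all tested probes there. *SMAD7*, the inhibitory SMAD of both branches, was found by its accession and gave 0.19, 0.22, -0.076 and 0.20 (mean 0.13, adjusted *p* = 0.23). Array 3 stood apart from the others, and the second *SMAD7* probe had a mean of 0.37 and passed (adjusted *p* = 0.044).

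Of the corepressors and ubiquitin ligases, 4 were tested by name, all with means below 0, and *SMURF1* and *SMURF2* fell. Without loess neither ligase passed, and *TGIF1* was at 0.080, or -0.070 against the median of all tested probes there. *SMURF1*, a ligase that marks SMAD1 and SMAD5 and the receptors for degradation, gave -0.25, -0.20, -0.29 and -0.24 on arrays 1 to 4. The arrays lay within 0.1 of each other, and the level was 0.844 times that of control cells (95% confidence interval 0.766 to 0.930, log2 -0.25, SE 0.058, adjusted *p* = 0.030). The probe was dim, with log2 intensities between 4.23 and 4.89 in the control channel and between 3.98 and 4.65 in the HMB channel. It did not pass without array 1 (-0.24), array 2 (-0.26) or array 3 (-0.23), nor with normexp and loess (-0.13), without pairing or with an intensity trend and robust prior.

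*SMURF2*, its relative, which acts with SMAD7 on the TGF-beta receptor, gave -0.16, -0.22, -0.30 and -0.34 on arrays 1 to 4. All were below 0, at 0.840 times the level of control cells (95% confidence interval 0.756 to 0.933, log2 -0.25, SE 0.063, adjusted *p* = 0.034). A second *SMURF2* probe had a mean of -0.11 and did not pass (adjusted *p* = 0.22), nor did the mean of both, -0.18. The call was also lost without array 2 (-0.26), array 3 (-0.24) or array 4 (-0.22), without pairing, under the methods' t-test and without loess (-0.057). The probe that passed lies at chr11:13761969-13762028 (EquCab1, plus strand) and is shown as the brighter of the pair, whose difference was not tested.
SMURF2 probe: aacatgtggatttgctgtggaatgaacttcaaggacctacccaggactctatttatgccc

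*SKI*, a corepressor that binds SMAD complexes on DNA, was found by its accession. It gave 0.39, 0.41, 0.37 and 0.50 on arrays 1 to 4, all above 0. Its level was 1.34 times that of control cells (95% confidence interval 1.21 to 1.48, log2 0.42, SE 0.059, adjusted *p* = 0.0070). The call held in 12 of 13 alternatives and was lost without pairing, while the mean was 0.27 with normexp and loess. Its relative *SKIL* gave -0.22, -0.24, -0.30 and -0.052, with a mean of -0.20 (adjusted *p* = 0.075), and passed without array 4 (-0.25). *TGIF1*, a homeodomain corepressor of SMAD2, gave -0.15, -0.046, -0.13 and -0.16, with a mean of -0.12 (adjusted *p* = 0.19). The *SKI* probe is shown because its gene was found without its symbol, and it lies on unplaced sequence at chrUn:253109078-253109137 (EquCab1, minus strand).
SKI probe: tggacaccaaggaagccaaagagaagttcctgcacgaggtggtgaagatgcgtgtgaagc

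The ID genes are direct targets of BMP signalling and hold back MyoD-type factors. All 4 were tested under some name, all 4 means were above 0, also with either scaling alternative, and *ID1* alone passed. *ID1*, found by description, gave 0.10, 0.35, 0.31 and 0.71 on arrays 1 to 4. All arrays were above 0, with array 4 highest and array 1 nearest to 0. The level was 1.29 times that of control cells (95% confidence interval 1.09 to 1.53, log2 0.37, SE 0.10, adjusted *p* = 0.048). Its 5 probes, which share at least 56 bases, had means between 0.34 and 0.37, and 1 of them passed. The call was lost without array 2 (0.37), array 3 (0.39) or array 4 (0.25), without the filter on dim probes, without pairing and under the methods' t-test, and the mean without loess was 0.64.

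*ID2* gave -0.25, 0.17, -0.090 and 0.63 on arrays 1 to 4 (mean 0.12, adjusted *p* = 0.59), and without array 4 its mean was -0.056. *ID3* gave 0.35, 0.13, 0.090 and 0.52 (mean 0.27, adjusted *p* = 0.073), and it passed without loess at 0.46. *ID4*, found by description, gave -0.022, 0.075, -0.024 and 0.12 (mean 0.039, adjusted *p* = 0.68). In *ID1*, *ID2*, *ID3* and *ID4* alike the highest ratio was that of array 4.

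**Figure D3:**
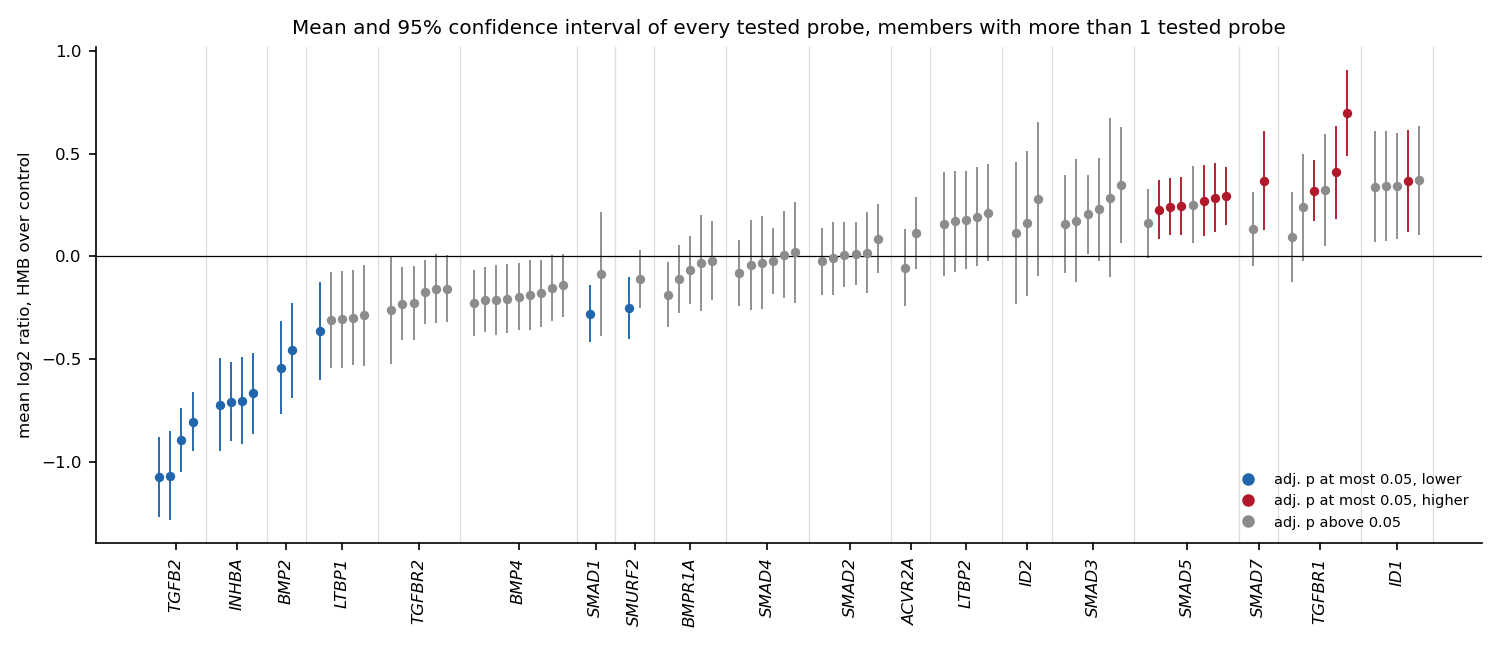
Mean log2 ratio of HMB over control with its 95% confidence interval (vertical axis) for every tested probe of the members that have more than 1, coloured where the adjusted *p* was at most 0.05. All probes of *TGFB2*, *INHBA* and *BMP2* passed and were lower, whereas *SMAD1*, *SMURF2*, *LTBP1*, *SMAD5*, *SMAD7*, *TGFBR1* and *ID1* have probes on both sides of the threshold.

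With the genes found by accession and by description, 48 of the 49 members were on the array, 41 were tested and 14 passed (34.1%), 6 higher (14.6%) and 8 lower (19.5%), beside 22.4%, 10.9% and 11.6% of all genes tested. The genes added this way were *SKI* and *SMAD7* by accession and *TGFBR1*, *TGFBR3*, *FSTL3*, *ID1*, *ID4* and *INHBB* by description. Of the 8 added genes, 4 passed and all 4 were higher, while 8 of the 10 genes found by name that passed were lower. The count of directions thus depended on how names were matched. *TGFBR3* and *GDF10*, both counted as higher, were tested through the HMB channel alone, in which they are brighter. When both channels had to be above background, 1 gene found by name was higher and 8 were lower. That is 27.3% of the 33 tested, beside 22.1% of all 26097 probes tested under that filter (2814 higher and 2957 lower).

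Across the arrays the members found by name were alike in their balance. Their medians were -0.07, -0.09, -0.10 and -0.12 on arrays 1 to 4, and 22, 22, 21 and 22 of the 34 were below 0. The mean size of the ratios of the 10 that passed was 0.40, 0.52, 0.58 and 0.66, smallest on array 1.

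A further 97 genes of the pathway were listed by role, with earlier results of these data known, of which 75 were found by name and 48 tested. Of these 10 passed (20.8%, beside 22.4% of all genes tested), 4 higher and 6 lower, with a median of -0.10. Without loess 12 passed (25.0%), 9 higher and 3 lower, with a median of 0.11, beside 26.6% of all tested probes, of which 78.3% were higher. Both shares lie near the background. Set against the median of all tested probes, the median of the 48 was -0.13 as reported and -0.040 without loess. When both channels had to be above background 8 of 44 passed (18.2%, beside 22.1% of all probes), 2 higher and 6 lower. This left out *PCSK6* and *TAB1*, which were tested through the HMB channel alone, in which they are brighter. Under the methods' t-test 0 passed after adjustment and 8 had an unadjusted *p* under 0.05, against 22 with limma. The count was 5 of 75 without the filter on dim probes (6.67%, beside 8.46% of all probes) and 4 without pairing (8.33%, beside 8.13%). It was 6 without array 2 (12.5%, beside 9.38%) and 5 without array 3 (10.4%, beside 9.97%), so the counts fell with those of the whole array.

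Among genes that store, free or activate TGF-beta, *FMOD* and *ITGB6* fell and *LRRC32* and *PCSK6* rose, out of 13 tested. *FMOD*, which codes for fibromodulin, a matrix proteoglycan that binds TGF-beta, gave -0.66, -0.77, -0.80 and -1.47 on arrays 1 to 4. Array 4 stood apart, and the mean of -0.92 (SE 0.14, adjusted *p* = 0.0080) was -0.74 without it and still passed. Of the 7 *FMOD* probes, 4 passed, and the call was lost without the filter on dim probes and under the methods' t-test. *ITGB6*, a subunit of an integrin that activates latent TGF-beta, had a mean of -0.50 (SE 0.075, adjusted *p* = 0.0079), with 1 of 2 tested probes past the threshold, and its mean was -0.33 with normexp and loess and -0.27 without loess. *LRRC32*, the cell surface anchor of latent TGF-beta, gave 0.28, 0.37, 0.29 and 0.60, with a mean of 0.39 (adjusted *p* = 0.018). *PCSK6*, a proprotein convertase that cleaves ligand precursors, gave 0.92, 0.12, 0.57 and 1.11, with a mean of 0.68 (adjusted *p* = 0.029), and its control channel was above background on 3 arrays. With normexp and loess *LRRC32* was at 0.18 and *PCSK6* at 0.26 and neither passed, as neither did without loess. Against the median of all tested probes, the values without loess were -0.013 for *LRRC32* and 0.025 for *PCSK6*. *LRRC32* did not pass without array 2 (0.39) or array 3 (0.42), and *PCSK6* did not without array 1 (0.60), array 3 (0.72) or array 4 (0.54). Neither passed without pairing or without the filter on dim probes.

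Of 4 further antagonists tested, *CHRDL1*, a chordin-like BMP antagonist, fell. It gave -0.46, -0.32, -0.45 and -1.29 on arrays 1 to 4 (mean -0.63, SE 0.16, adjusted *p* = 0.038). Array 4 stood apart from the others. The mean without it was -0.41 and still passed, whereas it did not pass without array 1 (-0.69), array 2 (-0.73) or array 3 (-0.69), without loess (-0.40), without pairing or without the filter on dim probes. Neither of the 2 further receptors tested, the coreceptors *ENG* and *RGMB*, passed.

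Of 13 further genes that act inside the cell, *NEDD4L* fell and *SMAD9* and *TAB1* rose. *NEDD4L*, a ubiquitin ligase that removes activated SMAD2 and SMAD3, gave -0.66, -0.98, -1.13 and -1.38 on arrays 1 to 4. All arrays were well below 0 (mean -1.04, SE 0.12, adjusted *p* = 0.0038), and the mean was -0.63 with normexp and loess and -0.62 without loess, both past the threshold. *SMAD9*, the third carrier of the BMP signal, gave 0.37, 0.55, 0.66 and 0.37 (mean 0.49, SE 0.074, adjusted *p* = 0.0084), and 3 of its 4 probes passed. Both genes missed the threshold only under the methods' t-test. *TAB1*, a partner of the kinase TAK1, had a mean of 0.60 (adjusted *p* = 0.031), but its control channel was above background on 1 array only. It was not tested when both channels had to be above background, which leaves *SMAD9* as the only higher gene of this group. It did not pass without array 1 (0.57), array 2 (0.55) or array 4 (0.50). It also did not pass without pairing or without the filter on dim probes, and its mean was 0.25 with normexp and loess. Without loess *TAB1* was at 0.14, or -0.011 against the median of all tested probes there, and did not pass.

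Of 12 target genes of TGF-beta tested, 2 passed (16.7%, beside 22.4% of all genes tested), both lower, with a median of -0.35. Without loess 3 of the 12 passed, all higher, with a median of 0.16. Neither share was above that of the whole array in the same setting. Set against the median of all tested probes the medians were -0.37 and 0.014, and 78.3% of all probes that passed without loess were higher. *CTGF* gave -0.34, -0.24, -0.49 and -0.46 on arrays 1 to 4 (mean -0.38, SE 0.068, adjusted *p* = 0.014), and all 5 of its probes passed. *TIMP3*, an inhibitor of metalloproteinases, gave -0.13, -0.46, -0.75 and -1.13 (mean -0.62, SE 0.16, adjusted *p* = 0.035), and all 5 probes passed here too. *CTGF* did not pass without array 3 (-0.35), without loess (-0.20) or without pairing. *TIMP3* passed without array 1 (-0.78) but not without array 2 (-0.67), array 3 (-0.57) or array 4 (-0.45), nor with normexp and loess (-0.42), without loess (-0.37), without pairing or without the filter on dim probes. None of the 3 tested further BMP targets passed, *HEY1*, *HES1* and *MSX2*, with a median of 0.033, and 1 further ligand was tested and did not pass.

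**Figure D4:**
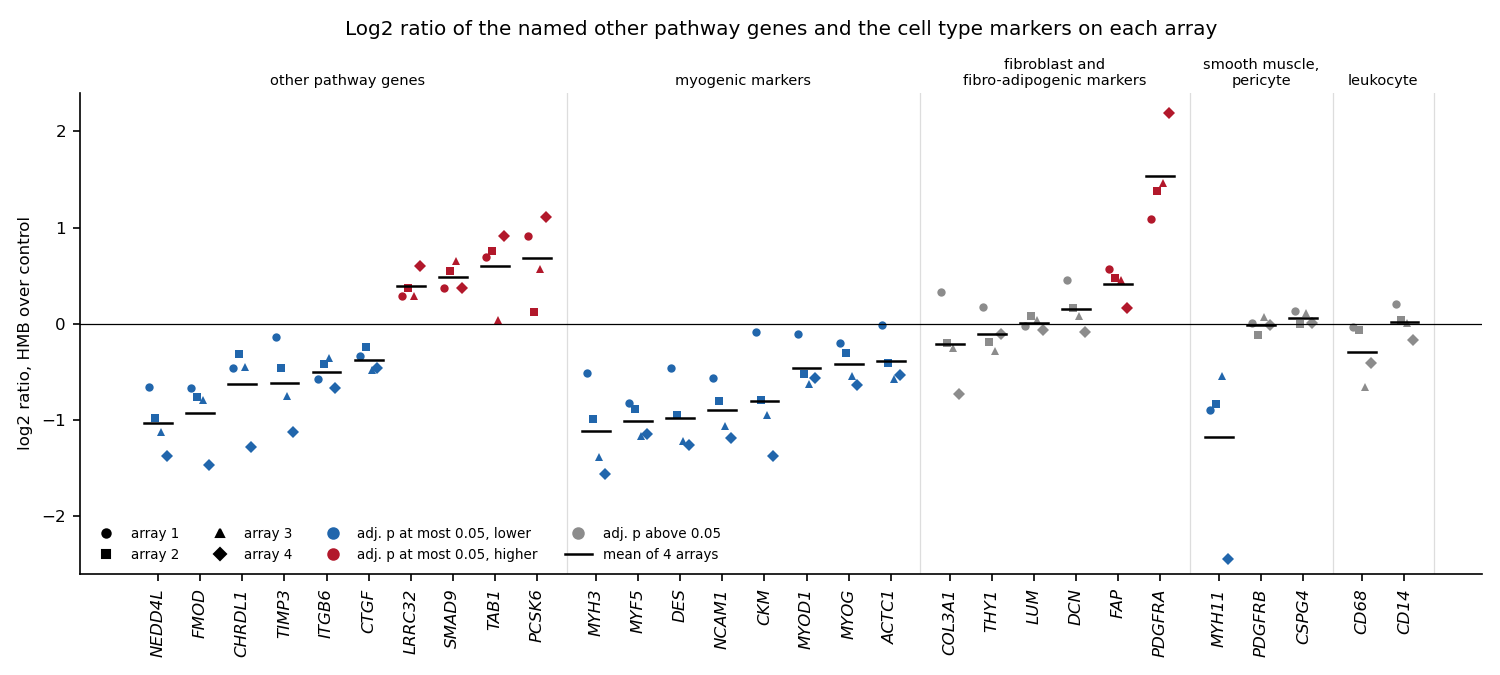
Log2 ratio of HMB over control (vertical axis) on arrays 1 to 4 for the 10 other pathway genes that passed and for the tested markers of muscle, fibroblast, smooth muscle and leukocyte cells, with a bar at each mean. All 8 myogenic markers have means below 0, from -1.11 to -0.38, although *ACTC1* turns above 0 with normexp and loess and without loess, and *PDGFRA* has the highest mean (1.53).

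Marker genes of the cell types that a muscle culture can hold are given beside these results. Of 10 myogenic markers 8 were found and tested, and all 8 were lower with HMB, with a median of -0.85. With normexp and loess 7 were lower, and without loess 5 were lower and *ACTC1* was higher, at 0.85. The number lower was 4 without array 2, 4 without array 3, 5 without array 4, 5 without pairing, 2 without the filter on dim probes and 0 under the methods' t-test, with all 8 means below 0 in each. *MYH3*, the embryonic myosin heavy chain, had a mean of -1.11, but -0.21 without loess, where it did not pass. *MYF5*, *DES* and *NCAM1* had means of -1.01, -0.98 and -0.90, and without loess of -0.76, -0.46 and -0.60. The summed processed intensity of the 8 probes was 260285, 253902, 306438 and 321215 in the control channel and 224019, 162654, 170093 and 174302 in the HMB channel of arrays 1 to 4. *ACTC1* was the brightest probe of the list. The part of these genes' cells in the values of *TGFB2*, *INHBA*, *FST* and the other members was not tested.

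Of 8 fibroblast and fibro-adipogenic markers 6 were tested and 2 were higher, *PDGFRA* at 1.53 and *FAP* at 0.42, while *THY1*, *LUM*, *DCN* and *COL3A1* did not pass. The dimmer of the 2 *DCN* probes did pass and was higher. With normexp and loess 3 of the 6 were higher. Without loess 5 were, in a setting where the median of all tested probes was 0.15. Set against that of all tested probes, the median of the 6 was 0.058 as reported and 0.67 without loess. *PDGFRA* was at 0.89 with normexp and loess and at 0.93 without loess, and it missed the threshold only under the methods' t-test. *FAP* did not pass without array 1 (0.36), array 2 (0.40) or array 3 (0.40), without the filter on dim probes or under the methods' t-test, and was at 0.72 without loess. The summed intensity of the 6 was 182083, 177019, 191762 and 242890 in the control channel and 232096, 173721, 179970 and 180960 in the HMB channel, and *COL3A1* was the brightest. Of the smooth muscle and pericyte markers 3 were tested, with *MYH11* lower at -1.18 (HMB channel above background on 3 arrays). It was tested through the control channel alone, in which it is brighter. It passed in 6 of 12 alternatives and not without array 1 (-1.28), array 2 (-1.30) or array 3 (-1.39), without the filter, without pairing or under the methods' t-test. Its mean was -0.76 without array 4, -0.45 with normexp and loess and -0.55 without loess. The summed intensities of the 3 were 407, 354, 263 and 272 for control and 382, 303, 266 and 239 for HMB, *CSPG4* being the brightest. *CD14* and *CD68*, the leukocyte markers tested, had means of 0.020 and -0.29 and did not pass, with *CD14* the brighter, but without loess *CD14* was at 0.30 and passed. Their summed intensity was 5525, 4979, 4837 and 5634 in the control channel and 6342, 5121, 4829 and 4990 in the HMB channel. None of the 5 endothelial and 3 adipocyte markers found was bright enough to be tested. Above background on no array were 4 endothelial, 2 adipocyte, 1 leukocyte and 1 smooth muscle marker. The part of these cell types in the results was not tested.

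**Figure D5:**
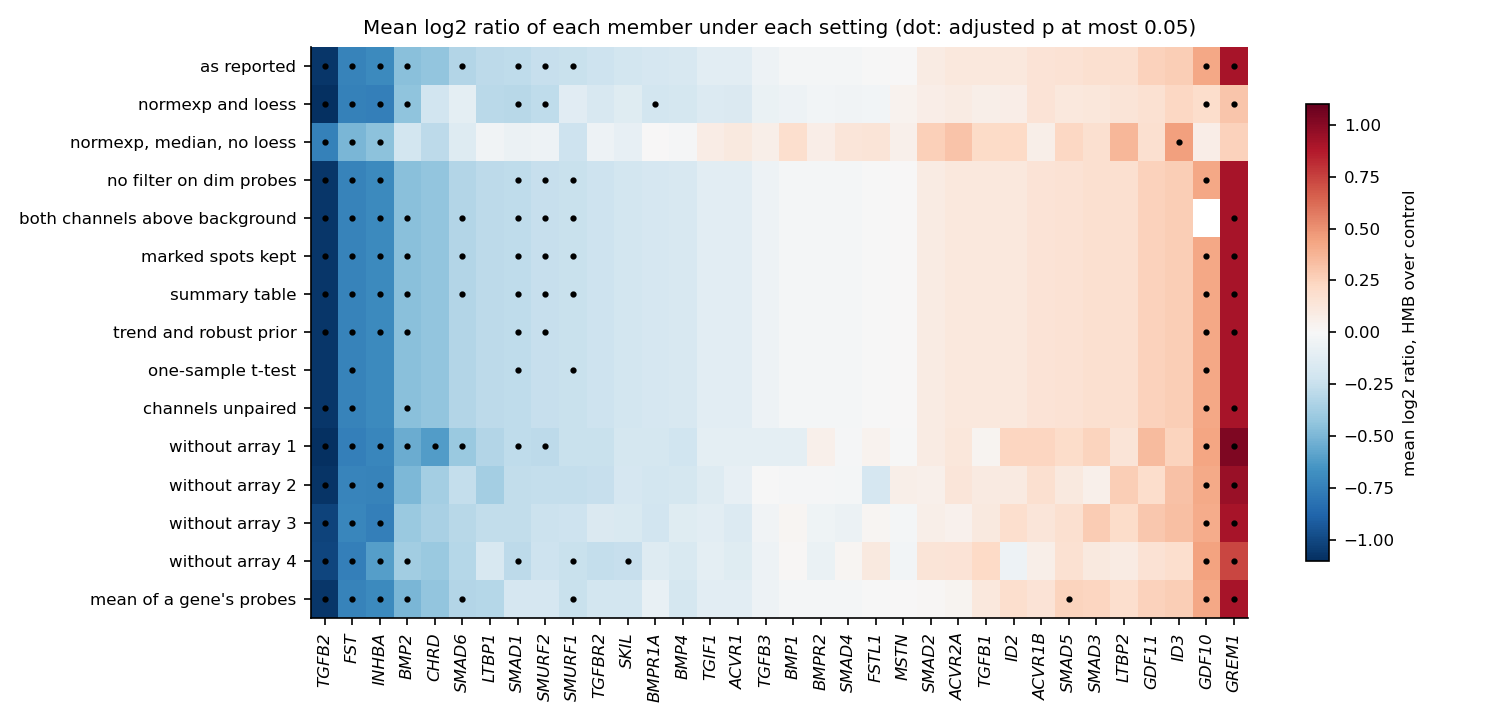
Mean log2 ratio of HMB over control (colour) of the 34 members found by name (columns) as reported and under 14 alternatives (lines), with a dot where the adjusted *p* was at most 0.05 and an empty field where *GDF10* was not tested. *FST* has a dot on every line, and *TGFB2* on every line but that of the t-test, while *SMAD6* has a dot on 6 of the 15 lines.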

How the data were processed

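The deposited Feature Extraction files were used, in which the authors give processed signals as intensity and LogRatio as a log10 ratio of Cy5 over Cy3. LogRatio was multiplied by log2(10) to give log2 values. The deposited marks of 0 or 1 say whether a spot is well above background, non-uniform or a population outlier. Control spots (1417) and spots marked non-uniform or as population outlier (11, 17, 32 and 15 on the 4 arrays) were left out, and spots of a probe were averaged. The deposited summary table holds the same log10 values. The SD of the ratios was 0.35, 0.34, 0.39 and 0.48 on arrays 1 to 4.

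Of 43603 probes, 27383 were tested: the same channel well above background on all 4 arrays and a value on at least 3. limma 3.58.1 in R 4.3.3 fitted the mean log2 ratio with moderated variance (eBayes), two-sided, with *p* adjusted by Benjamini-Hochberg across the 27383 probes and called up to 0.05. Other tools were R package data.table (version 1.17.8), Python 3.11.15, numpy 2.4.6, pandas 2.3.3 and matplotlib 3.10.9. The procedure was tried on simulated data first. The members and gene lists were chosen with earlier results of these data known. Other pathway genes are named where they passed. Of the 9 members without a gene name match, 2 were found by RefSeq accession (3 probes) and 6 by description (15 probes), and 2 more accession probes belong to *TGFB2*, which had a gene name match. The alternatives were normexp (offset 50) with loess, the same centred on the median without loess, no filter, the summary table, marked spots retained, a filter on both channels, an intensity trend with robust prior, the one-sample t-test (the study's supplement names a Student test, and the one-sample form was chosen here), channels unpaired, each array left out, matching by accession or description, and the mean of a gene's probes. The arrays' descriptions name another treatment and repeat a replicate number, so the sample titles were used.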

Additional observations from a re-analysis of the deposited data

Results flagged for a closer look

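Each of 54 sets of 4 values was looked at for a value standing apart, by the gap to its neighbour as a share of the range. A limit that chance passes in about 1 in 20 sets was passed in 4. The *SMAD7* ratio of array 3 was lowest, at -0.076 (0.902). The ratios of array 4 were lowest for *FMOD*, at -1.47 (0.834), and *CHRDL1*, at -1.29 (0.851). Signal over background of the HMB channel was highest on array 2, at 5.85 (0.888).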

How the results depend on the processing

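Of all tested probes 6257 passed, against 3690 without the filter on dim probes, 768 under the methods' t-test, 2226 when the pairing of channels within an array was dropped, 2569 to 4981 with an array left out, and 7291 (26.6%) without loess. For the members found by name the count of 10 became 4 (11.8%) without loess, where normexp with an offset of 50 is used as well, 4 under the t-test, 5 without pairing and 5 to 10 with an array left out. Without the filter on dim probes the members' count was 8 of 40 (20%, beside 8.46% of all probes). For the other pathway genes the count of 10 became 5 without the filter, 0 under the t-test (8 at an unadjusted *p* under 0.05, against 22 with limma), 4 without pairing and 5 to 11 with an array left out. Of the probes that passed, 49.1% were higher, but 78.3% without loess, where the median of tested probes moved from 0.022 to 0.15, and 29.9% without pairing. The cause was not tested. No passing member changed sign. Against the median of all tested probes without loess, however, *GDF10* was at -0.078 and *TGFBR3* at -0.13, although both were counted as higher. Of the other pathway genes counted as higher, *LRRC32* at -0.013 and *TAB1* at -0.011 also lay below that median. Matching by description was added after the files had been seen and raised the member count to 14. Signal over background near 3 to 6 limits how well ratios of dim probes such as *GREM1*, *GDF10*, *CHRD* and *SMURF1* are known.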
